A study of Mus musculus with 18 samples.

Results

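The 10 genes described here encode receptor chains for interferons, for IL4 and IL13, and for 3 related cytokines. They are Ifngr1 and Ifngr2 (interferon-gamma), Ifnar1 and Ifnar2 (type I interferons), Il4ra, Il13ra1 and Il2rg (IL4 and IL13), Il21r (IL21), Il10ra (IL10) and Il6ra (IL6). They were taken by symbol from the deposited gene table. No measured value served as a filter, but the list was drawn up with earlier results of these data known. All 10 were found among its 21954 genes, and all 10 were among the 12514 genes that passed the filter on low counts. RNA was sequenced from bone marrow derived mouse macrophages, which are macrophages grown from marrow cells in culture. The cells were wild type (called control in the sample titles) or carried a knockout of L13a, a ribosomal protein encoded by Rpl13a, in macrophages. Each genotype was left without treatment, treated with IFN, or treated with IL4. This gave 6 groups of 3 libraries, 18 in all. The type of interferon, the doses, the times, the strain and ages of the mice and the driver of the knockout are not given in the sources used here. Libraries carry the numbers of their titles: 1 to 3 were untreated, 4 to 6 received IFN and 7 to 9 received IL4, in each genotype. The labels call the libraries of a group replicates but do not say whether they came from separate animals or cultures, so p-values measure the spread between these libraries, which may be technical.

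Cytokine receptors of this family have no kinase of their own. Most chains carry a JAK kinase at the inner tail, and ligand brings the chains together. The JAKs then phosphorylate STAT factors that move to the nucleus. For interferon-gamma, Ifngr1 binds the ligand and carries Jak1, while Ifngr2 brings Jak2. For type I interferons, Ifnar2 binds with high affinity and carries Jak1, while Ifnar1 brings Tyk2. Il4ra binds IL4 and then recruits either Il2rg (the common gamma chain, which carries Jak3) or Il13ra1, and only the receptor with Il13ra1 also answers IL13. The common gamma chain also completes the receptor of IL21. In macrophages IL4 acts mainly through Stat6.

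Total expected counts per library, the estimated reads per gene that the authors' software gives, ran from 18098711 to 28477342. The members were well covered: Il13ra1, the lowest, had 72 to 1151 expected counts in a library, and the other 9 chains had at least 424. The targeted gene, Rpl13a, had group means of 536 to 736 TMM-normalized CPM (a count scaled to the size of its library) in wild type cells and 253 to 382 CPM in knockout cells, with the highest knockout library at 606 CPM. Lyz2, a lysozyme gene of macrophages, had group means of at least 3357 CPM in wild type cells and at most 4.37 CPM in knockout cells, so that the loss of L13a cannot be told apart from the change at Lyz2. Treatment showed in textbook target genes. Gbp2 averaged 16.3 CPM without treatment and 8108 CPM after IFN in wild type cells, and Arg1 averaged 0.496 CPM without treatment and 1002 CPM after IL4. Summed levels of 12 macrophage markers ran from 8894 to 18763 CPM. Il2rg and Il21r are also lymphocyte receptors, and markers of lymphocytes were close to 0 here: the 7 T cell markers in the table summed to at most 4.54 CPM, the B cell markers to at most 9.98 CPM (almost all Cd79b), the NK cell markers to at most 0.756 CPM, and Ncr1 was at 0 in all 18 libraries.

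Several chains lie side by side in the genome (GRCm38, GENCODE positions). Ifnar2 (chr16:91372783-91405589), Ifnar1 (chr16:91485238-91507441) and Ifngr2 (chr16:91547072-91565623) stand on the plus strand within 192.8 kb, together with Il10rb, the second chain of the IL10 receptor. Il4ra (chr7:125552120-125579474) and Il21r (chr7:125603429-125633570) are direct neighbours on the plus strand, 24.0 kb apart with no other protein coding gene between them, and 80423.4 kb from Rpl13a on the same chromosome. Il13ra1 (chrX:36112110-36171259, plus strand) and Il2rg (chrX:101264378-101268255, minus strand) are on the X chromosome. Ifngr1 lies at chr10:19591949-19610229, Il10ra at chr9:45253837-45269149 and Il6ra at chr3:89864059-89913196. Protein coding models that overlap Ifnar2 (Gm21970) and Il2rg (Gm20489) on the same strand held at most 4.74 and 0 expected counts in a library. Antisense models overlap Il4ra (Gm44876) and Il6ra (Gm42809), and a processed pseudogene on the opposite strand overlaps Il10ra (Gm20612). Reads of those could not be told apart from the genes if strand was not used in counting, which the sources used here do not state.

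Transcripts of Ifnar2 and Ifnar1, and of Il4ra and Il21r, move apart although the genes lie close together. Il2rg has the largest response. The promoter windows of these 5 chains are therefore printed. Each holds 300 bases, 250 before and 50 from the RefSeq start (GRCm38.p6), 5′ to 3′ on the strand of the gene. They span chr16:91372533-91372832 (Ifnar2), chr16:91484965-91485264 (Ifnar1), chr7:125552021-125552320 (Il4ra), chr7:125603179-125603478 (Il21r), all on the plus strand, and chrX:101268206-101268505 on the minus strand (Il2rg). RefSeq and GENCODE starts can differ, and most of the Il4ra window lies past the GENCODE start of that gene (125552120). Capitals mark a match to TTCNNNGAA, the palindrome known as the GAS element, which STAT dimers bind.
Ifnar2: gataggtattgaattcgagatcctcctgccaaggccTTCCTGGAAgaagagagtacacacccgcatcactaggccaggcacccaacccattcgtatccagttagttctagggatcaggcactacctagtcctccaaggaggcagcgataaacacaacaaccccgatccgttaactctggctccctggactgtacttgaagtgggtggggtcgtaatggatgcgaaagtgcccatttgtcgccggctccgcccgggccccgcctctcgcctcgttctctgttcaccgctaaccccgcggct
Ifnar1: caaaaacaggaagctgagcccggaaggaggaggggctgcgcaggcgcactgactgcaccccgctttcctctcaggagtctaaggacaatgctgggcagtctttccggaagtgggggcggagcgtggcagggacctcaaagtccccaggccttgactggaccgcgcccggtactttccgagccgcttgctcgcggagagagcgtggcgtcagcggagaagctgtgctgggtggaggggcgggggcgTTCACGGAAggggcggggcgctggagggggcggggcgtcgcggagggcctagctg
Il4ra: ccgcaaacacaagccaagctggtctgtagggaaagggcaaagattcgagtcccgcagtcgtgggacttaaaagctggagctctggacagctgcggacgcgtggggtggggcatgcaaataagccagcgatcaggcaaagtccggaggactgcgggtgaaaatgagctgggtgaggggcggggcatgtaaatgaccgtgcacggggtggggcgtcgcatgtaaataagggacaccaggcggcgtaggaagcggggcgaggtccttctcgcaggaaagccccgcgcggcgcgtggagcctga
Il21r: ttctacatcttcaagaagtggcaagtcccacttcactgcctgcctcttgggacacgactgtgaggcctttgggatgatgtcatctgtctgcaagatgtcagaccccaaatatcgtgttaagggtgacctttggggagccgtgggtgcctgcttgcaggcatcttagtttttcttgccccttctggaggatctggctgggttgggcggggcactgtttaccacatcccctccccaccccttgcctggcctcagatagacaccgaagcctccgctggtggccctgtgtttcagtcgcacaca
Il2rg: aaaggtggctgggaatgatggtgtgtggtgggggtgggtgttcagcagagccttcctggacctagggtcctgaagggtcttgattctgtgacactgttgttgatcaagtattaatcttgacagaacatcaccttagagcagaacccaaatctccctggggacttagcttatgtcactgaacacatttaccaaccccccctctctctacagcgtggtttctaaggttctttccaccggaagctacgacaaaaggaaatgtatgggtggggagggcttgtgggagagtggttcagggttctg

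3 motif strings were searched on both strands in the windows of 9 chains (Il10ra had none in the table). TTCNNNGAA, found in 8.298% of all 32851 windows, matched in Ifnar2 at -214 to -206 and in Ifnar1 at -5 to 3, counting the start base as 0. TTCNNNNGAA, the wider spacing preferred by STAT6 and found in 6.953% of windows, matched once, in Ifngr2 at -91 to -82. GAAANNGAAA or TTTCNNTTTC, the core of interferon-stimulated response elements, was in 3.443% of windows and in no window of a chain. These are matches of letters in a short window, not binding sites. The windows also differ in composition: that of Il2rg has 50.3% G and C with 3 CG steps and that of Il21r 56.0% with 7, near the medians over all windows of 52.7% and 7, while that of Il4ra has 62.0% with 25 and that of Ifnar1 68.3% with 26.

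Across the set, IFN raised the chains that bind IL4, IL13 and IL21 and lowered Ifnar1, while IL4 raised Il21r and lowered the type I interferon receptor chains. After IFN, 5 of the 10 chains passed the test in wild type cells (4 higher, 1 lower) and 6 in knockout cells (5 higher, 1 lower). A gene is called here at an adjusted p under 0.05 in edgeR's quasi-likelihood test, with Benjamini-Hochberg adjustment over all genes. Of all genes tested, 18.6% were called for the IFN response of wild type cells (11.1% higher and 7.55% lower) and 21.6% for that of knockout cells (12.6% higher and 8.93% lower). After IL4, 3 chains were called in wild type cells (1 higher, 2 lower) and 4 in knockout cells (1 higher, 3 lower). The shares over all genes were 8.49% (4.96% higher, 3.53% lower) and 9.48% (5.35% higher, 4.12% lower). The median log2 fold change of the 10 chains after IFN was 0.53 in wild type and 0.67 in knockout cells, beside -0.02 and -0.03 over all genes. After IL4 it was -0.28 and -0.38, beside -0.01 and 0.01. The responses to IFN and to IL4 are measured against the same untreated libraries.

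**Figure D1:**
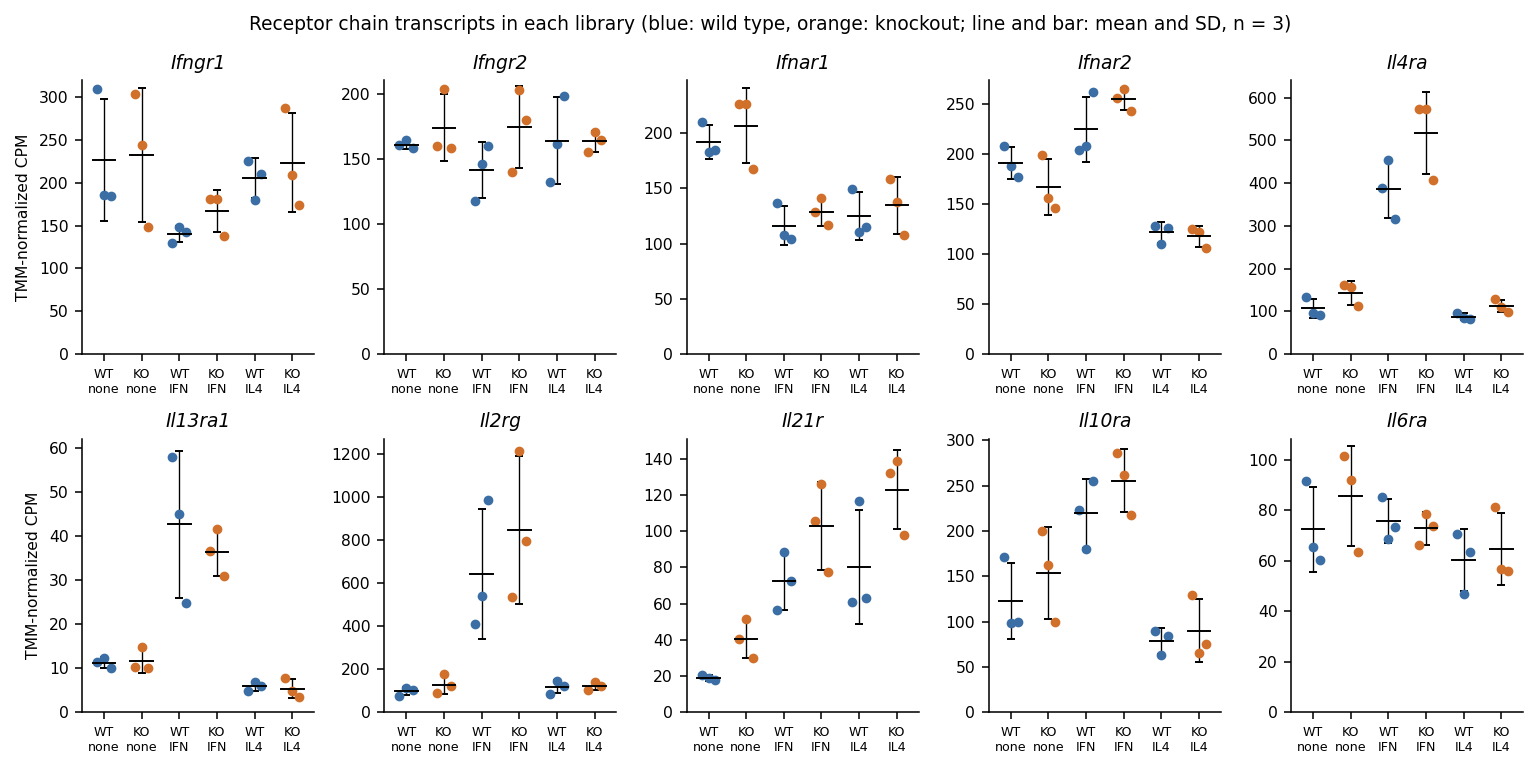
Normalized level (TMM-normalized CPM, linear axis from 0) of each of the 10 chains in each of the 18 libraries, by genotype (WT wild type, KO knockout) and treatment. Points are libraries in the order of their numbers, lines are means and bars are SD of 3 libraries. Il4ra, Il13ra1 and Il2rg stand apart in the IFN groups, Il21r is lowest in untreated wild type cells, and Ifngr2 and Il6ra differ little between groups.

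The ligand-binding chain of the interferon-gamma receptor, Ifngr1, was not called in any comparison by edgeR's test on all libraries. It was at 309, 186 and 185 CPM in untreated wild type libraries 1, 2 and 3, at 130, 148 and 143 CPM after IFN and at 226, 180 and 210 CPM after IL4. All 3 IFN libraries were below all 3 untreated ones. The log2 difference was -0.69 (SE 0.26) with an adjusted p of 0.0734 in edgeR's test. DESeq2 called it (adjusted p = 0.0413), as did the fit on these 6 libraries alone (adjusted p = 0.0477). Without untreated library 1, which stands above the other 2, the log2 difference was -0.42 (adjusted p = 0.287, edgeR). Those other 2 libraries were much closer to each other than any other replicates over all genes, so they may not be independent. In knockout cells Ifngr1 was at 304, 244 and 149 CPM without treatment and at 181, 182 and 138 CPM after IFN, and the groups overlapped (log2 -0.48, SE 0.25, adjusted p = 0.212, edgeR). Limma on TPM called this fall (adjusted p = 0.0460), as did edgeR's test without untreated library 3 (adjusted p = 0.0369), while without untreated library 1 the log2 difference was -0.26. Ifngr2, the signalling chain that brings Jak2, had group means from 142 CPM (wild type, IFN) to 175 CPM (knockout, IFN), a ratio of 1.23 between the highest and the lowest. Its neighbouring groups in that order all overlapped. It was the steadiest of the 10 chains by this ratio.

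The chains of the type I interferon receptor moved in different directions with IFN and in the same direction with IL4. Ifnar1, which brings Tyk2, was at 210, 183 and 184 CPM in untreated wild type cells, at 136, 108 and 105 CPM after IFN and at 150, 111 and 115 CPM after IL4. Knockout cells had 227, 226 and 167 CPM, then at 128, 142 and 117 CPM after IFN and at 159, 138 and 108 CPM after IL4. Every treated library of a genotype was below every untreated one. After IFN the log2 difference was -0.73 (SE 0.17, adjusted p = 0.00728, edgeR) in wild type cells, a fold of 0.605. In knockout cells it was -0.68 (SE 0.17, adjusted p = 0.00970, edgeR). After IL4 it was -0.62 (SE 0.17, adjusted p = 0.0343) in wild type and -0.62 (SE 0.17, adjusted p = 0.0336) in knockout cells, by the same test. The fitted values of the 2 treatments did not differ by the test (log2 of IFN against IL4 -0.10, SE 0.17, in wild type cells, 95% interval -0.47 to 0.26).

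Ifnar2, the high-affinity chain, was at 208, 188 and 177 CPM in untreated wild type cells, at 204, 208 and 262 CPM after IFN and at 129, 110 and 126 CPM after IL4. Knockout cells had 199, 156 and 146 CPM, then at 256, 265 and 244 CPM after IFN and at 125, 122 and 106 CPM after IL4. The IFN libraries overlapped the untreated ones in wild type and lay above them in knockout cells. The rise passed the test in knockout cells (log2 0.61, SE 0.14, adjusted p = 0.00447, edgeR) and missed it in wild type cells (log2 0.23, SE 0.14, adjusted p = 0.276, edgeR). The difference between these responses was not called (log2 0.38, 95% interval -0.03 to 0.79, adjusted p = 1.0, edgeR), so the genotypes are not shown to differ. After IL4 Ifnar2 fell by 0.65 on the log2 scale in wild type cells (SE 0.14, adjusted p = 0.00684, edgeR) and by 0.50 in knockout cells (SE 0.14, adjusted p = 0.0307, edgeR). IFN against IL4 gave a log2 difference of 0.89 (SE 0.14) in wild type and 1.12 (SE 0.14) in knockout cells, both called.

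The IL4 calls of Ifnar1 in both genotypes and of Ifnar2 in knockout cells lie close to the threshold, while that of Ifnar2 in wild type cells was kept in all 13 alternatives. The fall of Ifnar1 in wild type cells lost the call when library 1, 2 or 3 of the untreated cells or library 8 or 9 of the IL4 cells was left out, with log2 values from -0.54 to -0.65 and adjusted p from 0.0682 to 0.149 (edgeR). In knockout cells that of Ifnar1 lost it without untreated library 1 or 2 or IL4 library 8 or 9 (log2 -0.50 to -0.65, adjusted p 0.0698 to 0.123), and that of Ifnar2 without untreated library 1 or IL4 library 8 or 9 (log2 -0.37 to -0.54, adjusted p 0.0539 to 0.121). In knockout cells both calls were also lost when only these 6 libraries were fitted (adjusted p = 0.152 for Ifnar1 and 0.157 for Ifnar2), and that of Ifnar2 in limma on TPM (adjusted p = 0.0538). Every one of these values stayed below 0.

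The ratio of Ifnar2 to Ifnar1 within a library shows the shift without any scaling between libraries. It was computed from TPM, a level that is scaled to the library and to gene length. It was 2.59, 2.75 and 2.65 in untreated wild type cells and rose to 4.29, 5.40 and 7.44 after IFN, while after IL4 it was 2.54, 3.19 and 3.33. In knockout cells it was 2.09, 1.76 and 2.10 without treatment, 5.64, 5.60 and 6.11 after IFN and 2.25, 2.60 and 2.80 after IL4. All 6 IFN libraries were above all 12 others. Untreated knockout libraries were all below untreated wild type ones. For the interferon-gamma receptor, the ratio of Ifngr1 to Ifngr2 had group means between 1.58 and 2.25. It was 1.45 to 1.78 in IFN-treated wild type cells, just below the 1.81 to 3.08 of untreated ones, and the same groups overlapped in knockout cells.

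**Figure D2:**
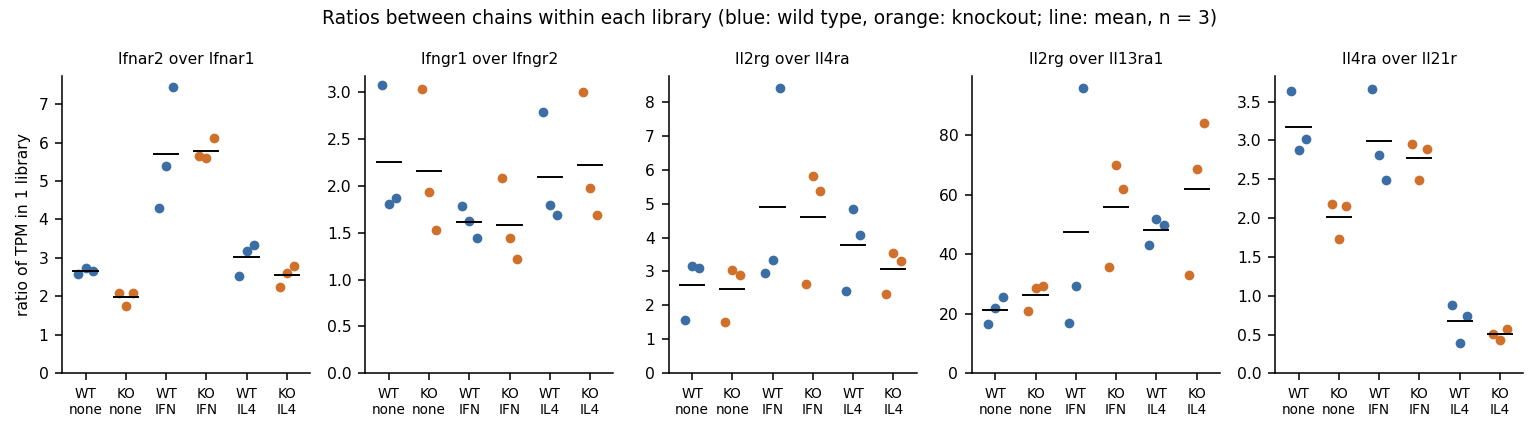
Ratio of the TPM of 1 chain to that of another within each library (linear axes from 0), by genotype (blue wild type, orange knockout) and treatment. Points are libraries and lines are means of 3. Ifnar2 over Ifnar1 is 4.29 to 7.44 in the IFN libraries and at most 3.33 elsewhere, and Il4ra over Il21r is at most 0.876 in the IL4 libraries and at least 1.73 elsewhere.

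The chains of the IL4 and IL13 receptors rose with IFN, not with IL4. Il4ra, shared by both IL4 receptors, was at 133, 95.8 and 92.2 CPM in untreated wild type cells, at 389, 454 and 317 CPM after IFN and at 96.6, 83.3 and 81.9 CPM after IL4. Knockout libraries were at 160, 158 and 112 CPM, then at 573, 573 and 407 CPM after IFN and at 128, 109 and 98.8 CPM after IL4. The lowest IFN library was at 317 CPM and the highest of the other 12 at 160 CPM. IFN raised it 3.61-fold in wild type (log2 1.85, SE 0.20, adjusted p = 7.79e-06, edgeR) and 3.62-fold in knockout cells (log2 1.85, SE 0.20, adjusted p = 6.44e-06, edgeR). IL4 itself gave log2 differences of -0.30 (SE 0.20) and -0.36 (SE 0.20), neither called.

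Il13ra1, the partner that also lets IL13 signal, was the least abundant chain. It was at 11.5, 12.4 and 10.1 CPM in untreated wild type cells, at 58.1, 45.2 and 25.0 CPM after IFN and at 4.87, 6.84 and 6.07 CPM after IL4. Knockout libraries were at 10.2, 15.0 and 10.1 CPM, then at 36.6, 41.6 and 31.0 CPM after IFN and at 7.73, 4.96 and 3.51 CPM after IL4. The 3 treatments did not overlap in either genotype. IFN raised it by 1.92 on the log2 scale (SE 0.29, adjusted p = 0.000170, edgeR) in wild type and by 1.64 (SE 0.29, adjusted p = 0.000608, edgeR) in knockout cells. After IL4 it fell by 1.10 in knockout cells (SE 0.31, adjusted p = 0.0379, edgeR). In wild type cells the log2 difference was -0.94 (SE 0.31, adjusted p = 0.0796, edgeR). This was called in 3 of 13 alternatives. They were DESeq2 (adjusted p = 0.0301), the fit on only the libraries compared, and the fit with presence of Y chromosome transcripts as a covariate. The knockout call was lost without untreated library 1 or 2 or IL4 library 8 or 9, with log2 values from -0.89 to -1.20 and adjusted p from 0.0511 to 0.150 (edgeR). It was also lost when only the libraries compared were fitted. IFN against IL4 gave 7.25-fold in wild type and 6.67-fold in knockout cells, both called.

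Il2rg, the common gamma chain, had the largest rise with IFN. It was at 77.9, 112 and 106 CPM in untreated wild type cells, at 408, 541 and 985 CPM after IFN and at 86.6, 147 and 124 CPM after IL4. The knockout libraries had 87.9, 178 and 122 CPM, then at 535, 1214 and 794 CPM after IFN and at 106, 143 and 122 CPM after IL4. The IFN libraries spread widely within each genotype, but the lowest was above every other library. IFN raised it 6.54-fold in wild type (log2 2.71, SE 0.37, adjusted p = 6.99e-05, edgeR) and 6.57-fold in knockout cells (log2 2.72, SE 0.37, adjusted p = 5.67e-05, edgeR). With IL4 the log2 differences were 0.27 (SE 0.35) and -0.06 (SE 0.35), neither called.

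Per length, the receptor chains were led by Ifnar2 (mean 238 TPM) and Ifngr1 (200 TPM) in untreated wild type cells, whose libraries overlapped, followed by Il2rg (113 TPM). After IFN Il2rg led with 674 TPM in wild type and 847 TPM in knockout cells, which was 43.8% and 46.7% of the TPM summed over the 10 chains, beside 12.8% and 15.9% without treatment. Il13ra1 was the lowest of the 10 in all 6 groups, from 2.50 TPM (knockout, IL4) to 19.5 TPM (wild type, IFN). In each group Il2rg exceeded Il13ra1 by a mean of at least 21.3 times in TPM, with the ratio from 16.5 to 95.9 over libraries. The TPM of Il4ra was between these, 5.75 to 25.4 times that of Il13ra1.

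Il21r was the chain that both cytokines raised. It binds IL21 together with the common gamma chain. It was at 20.9, 18.8 and 17.7 CPM in untreated wild type cells, at 56.6, 88.5 and 72.7 CPM after IFN and at 60.8, 117 and 63.1 CPM after IL4. The knockout libraries had 40.6, 51.3 and 29.9 CPM, then at 105, 126 and 77.3 CPM after IFN and at 132, 139 and 98.1 CPM after IL4. Treated libraries were above untreated ones in each genotype. IFN raised it 3.79-fold (log2 1.92, SE 0.28, adjusted p = 0.000132, edgeR) in wild type and 2.54-fold (log2 1.35, SE 0.27, adjusted p = 0.00190, edgeR) in knockout cells. IL4 raised it 4.18-fold (log2 2.07, SE 0.28, adjusted p = 0.000197, edgeR) and 3.04-fold (log2 1.60, SE 0.27, adjusted p = 0.00136, edgeR). IFN against IL4 was not called in either genotype (log2 -0.14, 95% interval -0.71 to 0.42, in wild type cells). Its neighbour Il4ra went with it under IFN and not under IL4. In TPM Il4ra over Il21r was 2.88 to 3.64 in untreated and 2.49 to 3.66 in IFN-treated wild type cells, and 0.392 to 0.876 after IL4.

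Il10ra and Il6ra bind IL10 and IL6 and signal with chains shared between receptors, Il10rb and Il6st. Il10ra was not called against untreated cells, but it was higher after IFN than after IL4. It was at 171, 98.9 and 99.4 CPM in untreated wild type cells, at 223, 180 and 256 CPM after IFN and at 89.4, 62.9 and 84.4 CPM after IL4. In knockout cells it was at 200, 162 and 99.3 CPM, then at 286, 262 and 218 CPM after IFN and at 130, 65.3 and 75.7 CPM after IL4. IFN lay above the untreated cells in both genotypes without overlap (log2 0.83, SE 0.29, adjusted p = 0.0602 in wild type, and log2 0.73, SE 0.29, adjusted p = 0.0895 in knockout cells, edgeR). For wild type cells DESeq2 called this rise (adjusted p = 0.0320), as did edgeR's test on these 6 libraries alone (adjusted p = 0.0431) or without untreated library 1 (log2 1.13, adjusted p = 0.0200). After IL4 the knockout log2 difference of Il10ra was -0.77 (SE 0.29, adjusted p = 0.126), called without untreated library 3 (adjusted p = 0.0416) or IL4 library 7 (adjusted p = 0.0270). IFN against IL4 gave a 2.78-fold level in wild type (log2 1.48, SE 0.30, adjusted p = 0.00179, edgeR) and a 2.83-fold level in knockout cells (log2 1.50, SE 0.30, adjusted p = 0.00146, edgeR). Il6ra had group means from 60.2 to 85.6 CPM, overlapped between all neighbouring groups, and was called in none of the 12 comparisons.

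In the direct comparison of the treatments, 5 chains were called in each genotype, all higher after IFN than after IL4: Ifnar2, Il4ra, Il13ra1, Il2rg and Il10ra. Over all genes 21.1% were called in wild type cells (11.8% higher after IFN) and 22.2% in knockout cells (12.4% higher after IFN). By edgeR's test on all libraries, no chain was called lower after IFN. Ifngr1 had the lowest value, with a log2 difference of -0.55 (SE 0.26, adjusted p = 0.156, edgeR) in wild type cells and no overlap of the libraries. It was called when only these 6 libraries were fitted (adjusted p = 0.0245) and in none of the other 12 alternatives.

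**Figure D3:**
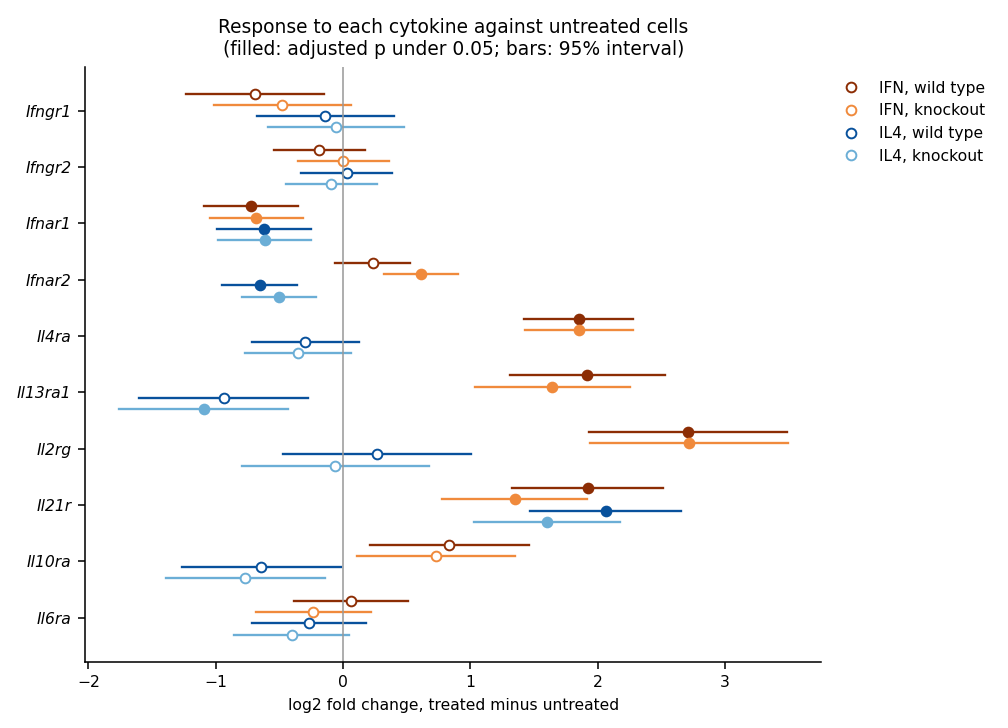
Log2 fold change of each chain after IFN or IL4 against untreated cells, in wild type and knockout cells, with its 95% interval (x axis, log2 scale). Filled points have an adjusted p under 0.05 in edgeR's test. Il4ra, Il13ra1 and Il2rg lie to the right with IFN (1.64 to 2.72), Il21r with both cytokines (1.35 to 2.07), and Ifnar1 to the left with both (-0.62 to -0.73).

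Some markers of other cells moved with the treatments. Dendritic cell markers summed to 0.848 to 2.86 CPM in the 6 untreated libraries and to 42.7 to 125 CPM in the 6 IFN libraries, mostly Clec9a (at most 112 CPM). Over all 18 libraries of any treatment, the highest value was 15.4 CPM for Xcr1, which marks the same dendritic cell subset, and 3.05 CPM for Zbtb46. For Cd209a it was 1.39 CPM, for Flt3 0.402 CPM and for Siglech 0.311 CPM. Flt3, Cd209a and Siglech were at 0 in IFN-treated wild type libraries 4, 5 and 6. In IFN-treated knockout cells Cd209a and Siglech were at 0 in libraries 5 and 6, and no marker of the list was at 0 in library 4. Fibroblast or stromal markers, mostly collagens, summed to 552 to 611 CPM in untreated wild type, 58.4 to 114 CPM in IFN-treated wild type and 142 to 282 CPM in IL4-treated wild type cells. In knockout cells their ranges overlapped between treatments (67.6 to 238, 25.7 to 397 and 107 to 563 CPM), with Lum at 0 in 16 and Dcn in 10 of the 18 libraries. Their part in the levels of the chains was not tested. In such bulk libraries more cells of a type and more RNA per cell cannot be told apart.

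Knockout and wild type cells were compared within each treatment. No chain was called in untreated, IFN-treated or IL4-treated cells by edgeR's test, where 0.0799%, 0.0639% and 0.0639% of all genes were called. At an unadjusted p under 0.05 there were 2, 1 and 1 of the 10 chains in these comparisons, beside 7.54%, 5.79% and 2.46% of all genes. DESeq2 called 1, 0 and 0, and limma on TPM 0 in each. For the mean of the 3 comparisons edgeR called 0 chains and 0.392% of all genes, with 2 chains and 10.2% of all genes under an unadjusted p of 0.05. DESeq2 called 2 and limma 1 for that mean. For the difference between genotypes in the response to IFN or IL4, edgeR's test called 0 chains and 0% of all genes. An unadjusted p under 0.05 was reached by 0 chains for either difference, beside 4.93% (IFN) and 1.99% (IL4) of all genes, and DESeq2 and limma called 0 chains.

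Il21r was the chain with the largest difference between genotypes, higher in knockout cells. Untreated knockout libraries (29.9 to 51.3 CPM) all lay above untreated wild type ones (17.7 to 20.9 CPM), a 2.11-fold difference (log2 1.08, SE 0.28, 95% interval 0.49 to 1.67). The adjusted p was 0.231 in edgeR's test and 0.0266 in DESeq2. Both tests count untreated wild type libraries 2 and 3, the closest replicates, as separate. With IFN the log2 difference was 0.50 (SE 0.27) and with IL4 0.62 (SE 0.26), where the libraries overlapped and neither was called. In IL4-treated cells the knockout library was the higher in each of the 3 same-numbered pairs. The mean over treatments was 1.66-fold (log2 0.73, SE 0.15, adjusted p = 0.0564, edgeR). This mean passed the threshold in DESeq2 (adjusted p = 0.00121), with no filter on low counts (0.0496), in limma on TPM (0.0276), and without wild type library 8 (0.00722) or knockout library 3 (0.0291), 6 (0.0382) or 9 (0.0470). A fit with the library number as a replicate block, given in the closing section, called this mean and the untreated difference. The numbers did not pair all untreated libraries. The log2 value of this mean stayed between 0.67 and 0.87 in every alternative.

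Markers of dividing cells differed between the same libraries. They summed to 263, 606 and 1033 CPM in untreated knockout libraries 1, 2 and 3, beside Il21r at 40.6, 51.3 and 29.9 CPM. In wild type cells all 9 libraries were between 694 and 969 CPM. Of the knockout libraries, 1, 4, 5 and 7 were at 244 to 273 CPM. Stromal markers were also lower in untreated knockout than in untreated wild type cells, as given above. Transcripts of the Y chromosome summed to at least 116 CPM in wild type libraries 1, 4, 5, 7 and 8 and to at most 0.143 CPM in every other library. With this presence as a covariate, the mean difference of Il21r was 0.86 on the log2 scale (adjusted p = 0.0962, edgeR). The part of dividing and stromal cells in the level of Il21r was not tested.

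Il4ra had the second largest mean difference, 1.32-fold higher in knockout cells (log2 0.40, SE 0.11, adjusted p = 0.179, edgeR), called by DESeq2 (adjusted p = 0.0394). The fit with the replicate block called it too. The log2 differences were 0.42 (SE 0.20), 0.42 (SE 0.19) and 0.36 (SE 0.20) in untreated, IFN-treated and IL4-treated cells. Libraries did not overlap in IL4-treated cells (98.8 to 128 against 81.9 to 96.6 CPM) and overlapped in the other treatments. Levels of Il4ra also followed the library number: in all 6 groups the lowest library was the one numbered 3, 6 or 9, and in 5 of 6 groups the highest was the one numbered 1, 4 or 7. Ifnar1, Il10ra and Il6ra were also highest in library 1, 4 or 7 in 5 of 6 groups. Il2rg went the other way, with its lowest library numbered 1, 4 or 7 in all 6 groups. Ifngr2 was lowest in library 4 or 7 in the treated groups of both genotypes. The share of all genes with such an order was not computed. For the other 8 chains the mean log2 difference between genotypes was between -0.10 (Il13ra1) and 0.28 (Il2rg). The 95% interval was -0.19 to 0.15 for Ifnar2 and -0.18 to 0.45 for Ifngr1.

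**Figure D4:**
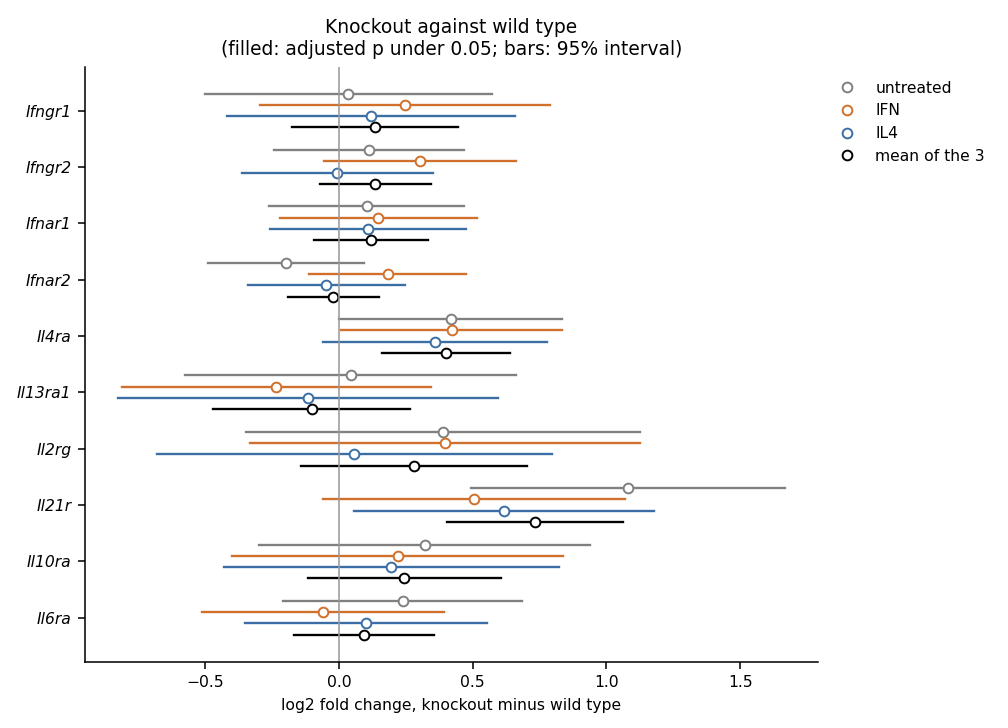
Log2 fold change of each chain between knockout and wild type cells in each treatment and for the mean of the 3, with its 95% interval (x axis, log2 scale). No point is filled, since none has an adjusted p under 0.05 in edgeR's test. Il21r lies farthest to the right, at 1.08 without treatment and 0.73 for the mean, and the intervals of Ifngr1, Ifngr2, Ifnar1 and Ifnar2 hold 0 throughout.

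Of 32 other chains of the class I and II cytokine receptor families, 18 passed the filter. After IFN 4 were called higher and 1 lower in wild type cells, beside 11.1% and 7.55% of all genes. Il12rb1 and Il12rb2, the chains of the IL12 receptor, were at 0.104 ± 0.113 and 15.3 ± 0.551 CPM (SD, n = 3) without treatment and at 99.4 ± 8.28 and 109 ± 6.79 CPM after IFN. Il15ra, whose receptor signals through the common gamma chain, rose from 2.02 ± 0.744 to 12.5 ± 2.41 CPM (log2 2.62, adjusted p = 6.16e-05, edgeR). Crlf2, the TSLP receptor chain, also rose (log2 0.73, adjusted p = 0.0394, edgeR). Il10rb, which lies between Ifnar2 and Ifnar1, was called lower, at 330 ± 34.6 CPM without treatment and 222 ± 19.0 CPM with IFN (log2 -0.57, adjusted p = 0.00867, edgeR). In knockout cells the same 4 were called higher, and Il10rb (log2 -0.49) and Il27ra (log2 -1.42) lower. Along the cluster on chromosome 16 the log2 responses to IFN in wild type cells were thus 0.23 for Ifnar2, -0.57 for Il10rb, -0.73 for Ifnar1 and -0.19 for Ifngr2, of which the middle 2 were called.

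After IL4 4 of the 18 other chains were called higher and none lower in each genotype, beside 4.96% and 5.35% of all genes called higher. They were Il27ra (log2 2.77 in wild type cells), Il20rb (2.33), Il11ra1 (1.72) and Csf2rb (1.51), each with an adjusted p of at most 0.00487 in edgeR's test. Csf2rb, the common beta chain of the GM-CSF, IL3 and IL5 receptors, went from 333 ± 31.7 to 951 ± 77.2 CPM (SD, n = 3). It has a near-identical copy, Csf2rb2, so that its share of the reads is uncertain. The other partners of the common gamma chain were low or steady: Il2ra and Il2rb reached at most 0.357 and 0.725 CPM in a library, and Il7r averaged 137 CPM in all 3 wild type groups. Il13ra2, the decoy receptor of IL13, held at most 1 expected count in a library. The median log2 fold change of the 18 chains in wild type cells was -0.01 after IFN and 0.39 after IL4, beside -0.02 and -0.01 over all genes.

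**Figure D5:**
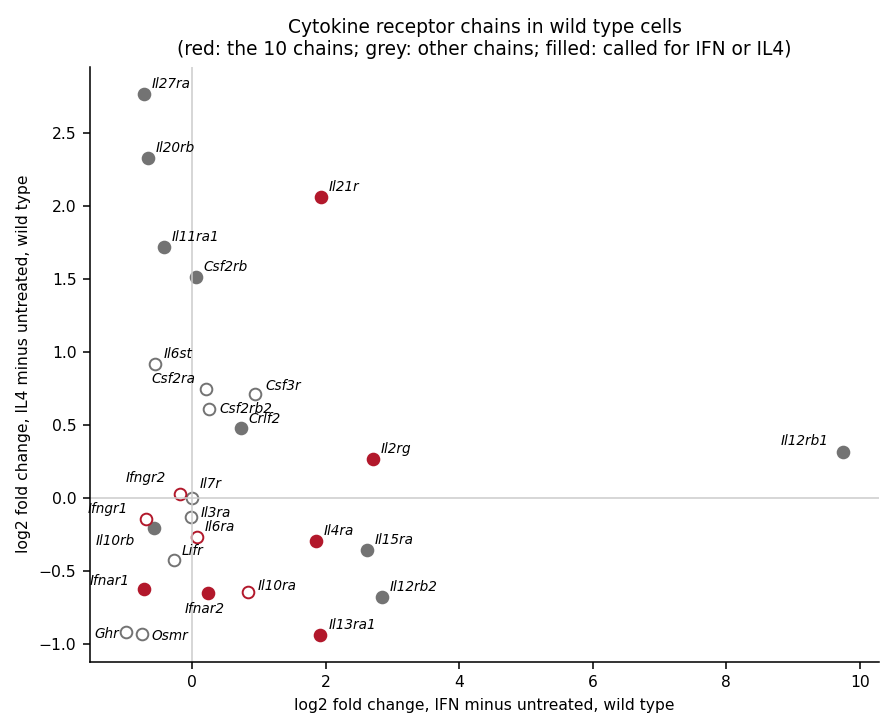
Log2 fold change after IL4 (y axis) against that after IFN (x axis) in wild type cells for the 10 chains (red) and the 18 other tested cytokine receptor chains (grey). Filled points were called for IFN or IL4 by edgeR's test, and both axes share the untreated libraries. Il21r alone lies above 1 on both axes (1.92 and 2.07), while Il12rb1, near 0 CPM without treatment, lies farthest to the right.

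Of 12 kinases and transcription factors that these chains use, 7 were called higher after IFN and none lower in each genotype, beside 11.1% and 12.6% of all genes called higher. In wild type cells Stat2 (log2 2.44), Stat3 (1.86) and Jak2 (1.64) rose, as did Jak3, the kinase of the common gamma chain (0.98), each with an adjusted p of at most 0.000960 in edgeR's test. After IL4 Jak2 rose in both genotypes (log2 1.50 and 1.43). Irf9, a partner of Stat2, fell in both (log2 -1.06 and -0.89). Stat6, the main factor of the IL4 receptor, was not called in any comparison, with group means of 217 to 271 CPM.

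Of 16 inhibitors of these receptors, 7 were called higher after IFN in each genotype, with 0 lower in wild type and 1 in knockout cells, beside 11.1% and 12.6% of all genes called higher. The median log2 values of these 16 were 0.34 in wild type and 0.14 in knockout cells after IFN and 0.16 and -0.03 after IL4, beside -0.02, -0.03, -0.01 and 0.01 over all genes. After IL4 4 were called higher in each genotype, with 0 and 2 lower, beside 4.96% and 5.35% of all genes called higher. Socs1, which blocks JAK kinases, rose from 1.57 ± 0.543 to 250 ± 87.5 CPM after IFN and to 52.8 ± 24.0 CPM after IL4 in wild type cells (SD, n = 3). Socs3 (log2 3.15), Ptpn2 (1.06) and Usp18, which binds Ifnar2 and dampens its signal (3.28), rose with IFN. Cish (log2 6.39), Socs2 (2.92) and Socs6 (1.12) rose with IL4.

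Most ligands of these receptors were near 0. Of 19 ligand genes, 8 passed the filter. Il4, Il13 and Il21 held no count in any library, Ifng at most 2 and Ifnb1 at most 7 expected counts. Il27 (7.70 ± 1.39 CPM after IFN in wild type cells), Il15 (33.2 ± 16.4) and Il7 (2.75 ± 1.03) were called higher after IFN in each genotype. Of all genes 11.1% (wild type) and 12.6% (knockout) were called higher. In knockout cells 1 ligand was called lower after IFN, beside 8.93% of all genes. After IL4 2 were called higher in knockout cells, beside 5.35% of all genes, and 0 in wild type cells. Il10 averaged 7.26 CPM in untreated wild type cells and was not called in any comparison. No member of the 4 lists was called between genotypes by edgeR's test.

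Among the 10 chains, the levels that went together most closely over the 18 libraries were those of Il4ra and Il13ra1 (Pearson r of log2 CPM 0.91), Ifnar2 and Il10ra (0.90) and Il4ra and Il2rg (0.89). The lowest values were -0.65 for Ifngr1 with Il2rg and -0.64 for Ifnar1 with Il21r. Among 9445 tested genes averaging 5 CPM or more, the one most like Il4ra was Peli1 (0.98), a ubiquitin ligase, and Stat3 was among the 3 most alike (0.975). Those most like the others were Itgal, an integrin chain, for Il13ra1 (0.98), Sumf1 for Il2rg (0.98), Tifa for Ifnar2 (0.98), BC017643 for Il10ra (0.97) and St18 for Ifnar1 (0.96). For Il21r they were Cdkn1a (0.92), an inhibitor of the cell cycle, Rgl1 (0.91) and Aen (0.91). These values describe libraries that share treatments, genotypes and library numbers, and the named genes are the highest by choice.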

How the data were processed

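RNA sequencing of 18 libraries in 6 groups was analysed from the deposited gene table. Per the file headers the authors deposited RSEM expected counts and TPM per gene. Per the submitters' processing notes, Bowtie 0.12.8, RSEM 1.2.3 and the mm10 build were used, and per the labels' protocols poly-A RNA was selected. Of the expected counts 21.5% were not whole and were rounded. Positions come from GENCODE vM21 by gene identifier (all 10 chains matched), and promoter windows from RefSeq by symbol (9 of 10).

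Counts were filtered with filterByExpr, normalized by TMM and tested with edgeR 4.0.16 (robust quasi-likelihood fit, 1 coefficient per group, R 4.3.3) on all libraries. P-values were adjusted by Benjamini-Hochberg over 12514 genes per comparison, for 12 comparisons. The standard error of a log2 fold change is its size divided by the root of the F statistic. Alternatives were DESeq2 1.42.0, limma 3.58.1 on log2(TPM + 1), and others given in the closing section. The script was tested on simulated data.

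The members and lists were chosen with earlier results of these data known. All 10 chains are reported. From the lists (other receptor chains, JAK and STAT genes, inhibitors, ligands) up to 4 called members of lowest p per comparison, or 2 between genotypes, are named, a selection of which is printed, and for each called chain up to 3 genes of highest r. Untested or uncalled genes named beside these (Il2ra, Il2rb, Il7r, Il13ra2, Csf2rb2, Stat6, Il10, Il4, Il13, Il21, Ifng, Ifnb1) and Crlf2, called at a higher p, were chosen after their values were seen, as were the promoters printed. In IL4-treated cells knockout and wild type libraries of the same number deviated together (r over 9712 genes 0.702, 0.561 and 0.475), so the numbers were taken as pairs there. Wild type untreated libraries 2 and 3 were closer than other replicates (chi-square per degree of freedom 6.0, others 51.5 to 184) and were kept as separate libraries. Some results are not reported here.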

Additional observations from a re-analysis of the deposited data

How the results depend on the processing

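Of the 28 calls of a chain in a comparison, 24 were kept in all 13 alternatives of their comparison and none changed direction in any. The other 4 are the falls with IL4 of Ifnar1 in both genotypes and of Ifnar2 and Il13ra1 in knockout cells. In the IL4 response of knockout cells 4 chains were called, but 1 when only the 6 libraries compared were fitted, and 1 to 5 when 1 library was left out. Between genotypes, DESeq2 called 1 chain in untreated cells (82 of all genes) and 2 for the mean of the treatments (196 of all genes), where edgeR called 0 chains (10 and 49 genes). For that mean, leaving out the filter on low counts called 1, limma on log2(TPM + 1) called 1, and leaving out 1 library called 0 to 1. A fit with the library number as a replicate block called 1 chain in untreated cells (Il21r, adjusted p = 0.0470) among 96 genes and 2 for the mean (Il21r, 0.00903, and Il4ra, 0.0140) among 246 genes, and it called no chain in the other comparisons of genotypes. The numbers did not pair all untreated libraries and paired the IFN libraries weakly. Same-numbered deviations correlated at 0.746, 0.072 and 0.573 without treatment and at 0.371, 0.036 and 0.265 with IFN. For the same wild type libraries, the highest r with a knockout library of another number was -0.082, 0.61 and 0.065 without treatment. With IFN it was -0.129, 0.03 and 0.103. Only untreated wild type library 2 was closer to another number than to its own. A further 9 calls were made only in an alternative. Of the 83 comparisons of a chain that were never called, 41 changed sign in some setting, all with a log2 size of at most 0.281. The legacy form of the edgeR fit was added after seeing the data. With 3 libraries a group, an exact permutation test of 1 value cannot go below 0.1, so no such test was used.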
